A study of Mus musculus with 20 samples.

Results

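Mpo, Elane, Prtn3, Ctsg, Ms4a3, Ctsc, Nkg7, Plac8 and Ly6c2 are genes of primary granules and of myeloid progenitors, and they are described here across mouse bone marrow stem and progenitor cells. They were chosen by name, and all 9 symbols were found among the 49568 in the count tables. RNA was sequenced from multipotent progenitors (MPP) and long-term haematopoietic stem cells (LT-HSC) that had been sorted by flow cytometry. The groups were MPP labelled Ahr-KO, WT MPP, LT-HSC labelled Ahr-KO and WT LT-HSC, with 5 libraries each. Ahr-KO stands for a knockout of Ahr, which encodes the ligand-activated aryl hydrocarbon receptor, and WT for C57BL/6 mice; the strain label is C57BL/6 for both. All animals were untreated and 8 to 12 weeks old. The labels give no knockout allele, no sort markers, and no litter, date or batch. They do not say that the libraries of a group came from separate animals, so that p-values measure only the spread between these libraries, which may be technical.

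Primary, or azurophil, granules are the first granules that a developing neutrophil makes, at the promyelocyte stage. They store myeloperoxidase, which makes hypochlorous acid from hydrogen peroxide, and the serine proteases neutrophil elastase, proteinase 3 and cathepsin G. The transcripts are made in granulocyte-monocyte progenitors, downstream of both populations studied here, and are largely gone from mature neutrophils, which keep the proteins. Low levels of such transcripts in multipotent cells are often called lineage priming.

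Mpo, the gene of myeloperoxidase, lies on chromosome 11 from 87793581 to 87804413. Elane (neutrophil elastase, 79886247 to 79888215) and Prtn3 (proteinase 3, 79874476 to 79883174) are neighbours on chromosome 10, with 3072 bases and 0 genes between them. Ctsg (cathepsin G) lies on chromosome 14 from 56099881 to 56102574, and Ms4a3, which encodes a membrane protein of granulocyte-monocyte progenitors, on chromosome 19 from 11629496 to 11640851. Ctsc (chromosome 7, 88278085 to 88310888) encodes cathepsin C, which cuts the granule serine proteases into their active form. Nkg7 (chromosome 7, 43437073 to 43438249) encodes a granule membrane protein best known from cytotoxic lymphocytes. Plac8 (chromosome 5, 100553725 to 100572245) encodes a small cysteine-rich protein of myeloid and lymphoid cells, and Ly6c2 (chromosome 15, 75108158 to 75111970) a surface antigen of monocytes and their progenitors. These are whole gene spans in GENCODE M21 on GRCm38.

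The promoters of Mpo, of the granule proteases Elane, Prtn3 and Ctsg and of Ms4a3 are shown, since the levels of Mpo, Elane, Ctsg and Ms4a3 varied together from library to library and those of Prtn3, next to Elane, did so less. Ly6c2, which also varied with Mpo, is not shown, as its counts are uncertain. The sequences are the 150 bases before the RefSeq start of each gene on GRCm38.p6, written 5′ to 3′ on the strand of the gene. For Mpo, Elane and Prtn3 this start lies inside the GENCODE span given above. The stretches of Mpo and Prtn3 therefore lie within that span, and that of Elane overlaps it. Capitals mark matches, on either strand, to GAGGAA (a core of PU.1 sites), TAACNG (MYB), TGTGGT (RUNX) or TTNNGNAA (C/EBP), which may overlap each other.
Mpo, chr11:87793634-87793783, plus strand: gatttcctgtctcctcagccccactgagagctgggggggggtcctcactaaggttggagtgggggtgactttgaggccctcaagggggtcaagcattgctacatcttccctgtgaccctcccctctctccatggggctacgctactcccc
Elane, chr10:79886162-79886311, plus strand: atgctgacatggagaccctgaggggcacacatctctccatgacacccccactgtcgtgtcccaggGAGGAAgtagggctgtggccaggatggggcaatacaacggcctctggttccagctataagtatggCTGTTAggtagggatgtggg
Prtn3, chr10:79879517-79879666, plus strand: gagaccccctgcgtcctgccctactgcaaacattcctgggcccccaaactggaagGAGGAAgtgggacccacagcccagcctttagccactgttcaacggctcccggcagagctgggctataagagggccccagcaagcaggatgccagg
Ctsg, chr14:56102575-56102724, minus strand: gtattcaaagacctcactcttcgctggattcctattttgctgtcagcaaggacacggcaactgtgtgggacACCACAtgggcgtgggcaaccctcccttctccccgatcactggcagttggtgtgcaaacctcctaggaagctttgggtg
Ms4a3, chr19:11640852-11641001, minus strand: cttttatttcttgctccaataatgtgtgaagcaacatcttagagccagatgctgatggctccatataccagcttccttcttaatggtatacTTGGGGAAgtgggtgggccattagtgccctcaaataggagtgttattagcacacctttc
Elane and Prtn3 each hold GAGGAA followed by gt in this stretch, and Elane also holds a MYB core on the minus strand of the gene. Ctsg holds a RUNX core and Ms4a3 a C/EBP match, and none of these letters stands in the Mpo stretch. In the 250 bases before the start, GAGGAA was found in 7 of the 9 genes, against 23.3% of the 32851 RefSeq windows. TTNNGNAA was found in 3 of 9, against 36.8% of windows, TGTGGT in 4 of 9, against 14.0%, and TAACNG in 2 of 9, against 19.8%. Plac8 and Ly6c2 have more than 1 start and were counted where any start had a match. A match is a string of letters and not a measured site.

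Library totals ran from 13712668 to 21622653 counts, and levels are given as TMM-scaled CPM, a gene's counts relative to those of its library. Ahr did not separate the labelled genotypes. In MPP it had 15.9 ± 3.91 CPM where labelled Ahr-KO and 9.81 ± 3.66 CPM in WT, and in LT-HSC 23.6 ± 4.14 CPM where labelled Ahr-KO and 26.5 ± 6.35 CPM in WT (SD, n = 5 each), with adjusted p of 0.663 in MPP and 0.861 in LT-HSC in edgeR. The allele is not given, so genotypes are used here as labelled. All 15 LT-HSC markers, such as Procr and Hlf, were detected in each LT-HSC library. In edgeR all 15 were lower in MPP than in LT-HSC in Ahr-KO, and 14 of 15, all but Ly6a, in WT. The libraries labelled Ahr-KO LT-HSC 2 and 3 stood apart, and results that rest on them are given with and without them. WT LT-HSC 1 differed from the other LT-HSC libraries in its mitochondrial share, 0.386% of counts against 1.07% to 1.65%.

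Mpo was among the most abundant transcripts of MPP, and in LT-HSC its level ranged widely between libraries of the same label. Mpo ranked between 1 and 16 among all genes in the 10 MPP libraries, where it took 0.227% to 0.764% of the counts. In the 10 LT-HSC libraries it ranked between 28 and 10859 and took 0.000592% to 0.145%. In bulk RNA, fewer cells that express a gene and less of its RNA per cell cannot be told apart.

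Mpo had 4094, 5283, 7891, 2252 and 3095 CPM in libraries 1 to 5 of MPP labelled Ahr-KO, and 6285, 4350.1, 3869, 5716 and 4643 CPM in libraries 1 to 5 of WT MPP. It had 304, 1433, 1293, 93.0 and 16.2 CPM in libraries 1, 2, 3, 4 and 7 of LT-HSC labelled Ahr-KO, and 6.09, 146, 118, 884 and 365 CPM in libraries 1, 4, 5, 6 and 8 of WT LT-HSC. Every MPP library lay above every LT-HSC library, while the genotypes overlapped in both populations. Among the LT-HSC libraries the highest and the lowest level of Mpo differed 235-fold, or 88.2-fold without WT LT-HSC 1, against 3.50-fold among the MPP libraries. The SD of log2 CPM of Mpo was 2.72 in LT-HSC labelled Ahr-KO, where 0.618% of 11805 genes had a larger one, and 2.71 in WT LT-HSC, where 0.665% of 11726 genes did. In MPP it was 0.70 in libraries labelled Ahr-KO and 0.29 in WT, with 3.44% and 33.1% of genes above it.

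Elane followed Mpo. Its levels, in the same order of libraries, were 1123, 1625, 1999, 324 and 573 CPM in MPP labelled Ahr-KO and 1400.0, 906, 904, 1739 and 1423 CPM in WT MPP. They were 80.1, 519, 363, 30.5 and 4.24 CPM in LT-HSC labelled Ahr-KO and 1.81, 28.8, 27.0, 251 and 86.8 CPM in WT LT-HSC. Ahr-KO LT-HSC 2 and 3 were the highest LT-HSC libraries, as for Mpo, and both lay above the lowest MPP library, Ahr-KO MPP 4.

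Ctsg had 382, 464, 521, 185 and 163 CPM in MPP labelled Ahr-KO and 423, 268, 249, 457 and 453 CPM in WT MPP. It had 17.9, 103, 100.0, 4.03 and 0.727 CPM in LT-HSC labelled Ahr-KO and 0.0476, 8.25, 8.15, 50.9 and 25.6 CPM in WT LT-HSC. The lowest value is a single count. Ahr-KO LT-HSC 2 and 3 were again highest and WT LT-HSC 1 and Ahr-KO LT-HSC 7 lowest.

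Ms4a3 had 207, 286, 244, 63.6 and 87.3 CPM in MPP labelled Ahr-KO and 191, 135, 139.6, 285 and 246 CPM in WT MPP. In LT-HSC it had 7.77, 58.3, 44.7, 3.61 and 0.848 CPM in libraries labelled Ahr-KO and 1.62, 6.17, 4.02, 31.8 and 14.0 CPM in WT. Its LT-HSC range was 68.7-fold.

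Prtn3, the neighbour of Elane, did not fall to such low levels in any LT-HSC library. It had 585, 673, 721, 321 and 307 CPM in MPP labelled Ahr-KO and 437, 348, 393, 571 and 558 CPM in WT MPP. It had 109, 238, 209.7, 119.7 and 105 CPM in LT-HSC labelled Ahr-KO and 79.1, 77.7, 70.9, 122 and 85.2 CPM in WT LT-HSC, a range of 3.36-fold. Plppr3, a brain-enriched membrane protein gene on the opposite strand, shares 159 of the 1732 annotated exon bases of Prtn3 (chromosome 10, 79874476 to 79874634). The shared bases lie upstream of the RefSeq start of Prtn3. The kit named in the labels' protocols does not mark strand, so reads of both genes could not be told apart there by strand. How such reads were counted is not stated. Plppr3 had 75.9 to 89.5 CPM in the 10 LT-HSC libraries and 179 to 346 CPM in the 10 MPP libraries. Its part in the counts of Prtn3 was not tested.

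**Figure D1:**
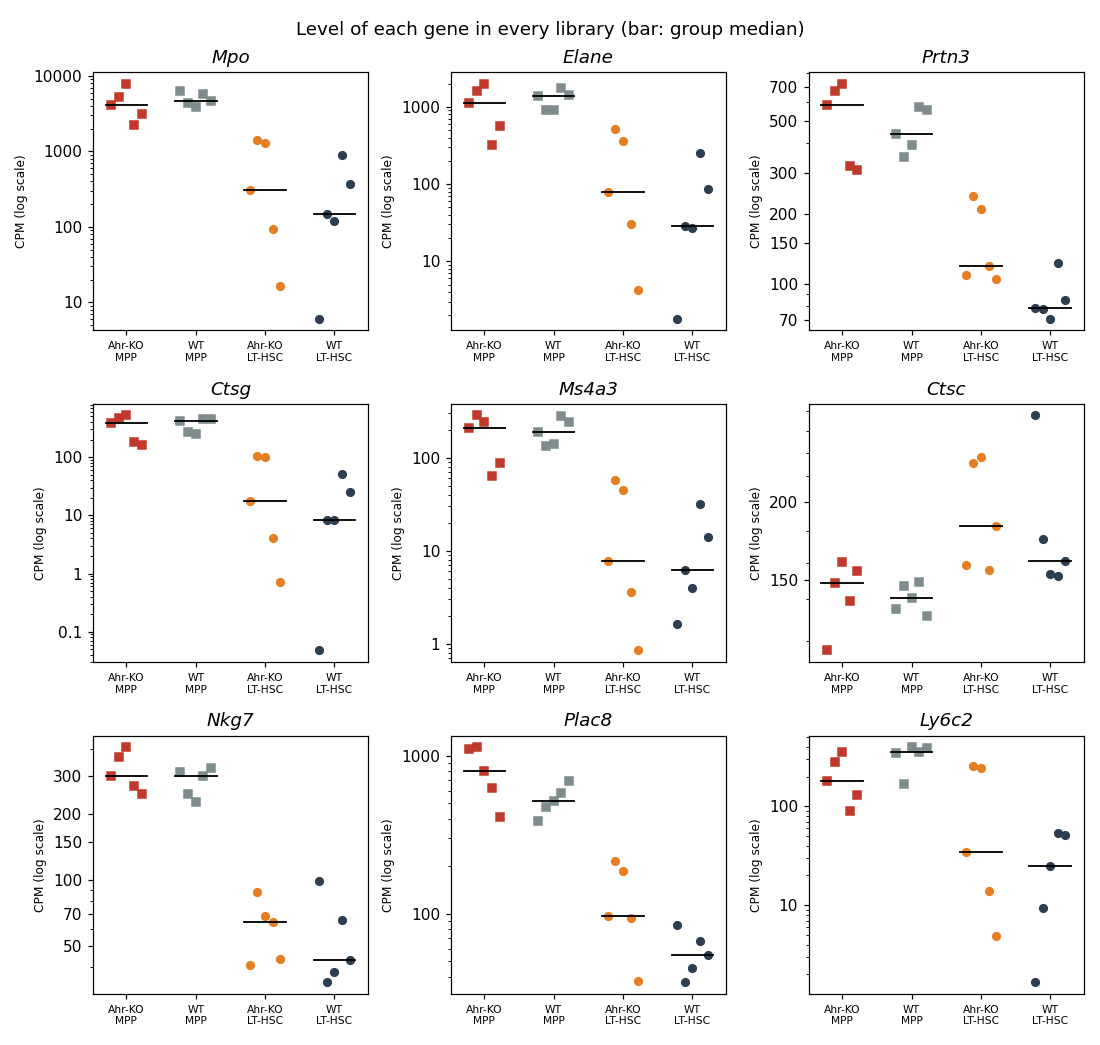
Levels of the 9 genes in CPM (log axis) in each of the 20 libraries; each point is a library and each bar a group median. Mpo, Elane, Ctsg, Ms4a3 and Ly6c2 spread over 68.7-fold or more in the LT-HSC libraries (53.1-fold or more without WT LT-HSC 1), and Prtn3, Ctsc, Nkg7 and Plac8 over 5.86-fold or less.

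Ctsc, the activating protease, was the 1 gene of the 9 that was not higher in MPP. It had 116, 149, 160.5, 139 and 155 CPM in MPP labelled Ahr-KO and 135, 147, 141, 149 and 132 CPM in WT MPP. It had 159, 231, 236, 156 and 183 CPM in LT-HSC labelled Ahr-KO and 275, 175, 153, 152 and 161 CPM in WT LT-HSC. The 5 WT MPP libraries lay below the 5 WT LT-HSC libraries, and the libraries labelled Ahr-KO overlapped.

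Nkg7 separated the populations without overlap. It had 300.0, 369, 406, 269 and 249 CPM in MPP labelled Ahr-KO and 315, 248, 228, 299 and 328 CPM in WT MPP. In LT-HSC it had 41.0, 88.2, 68.3, 64.2 and 43.3 CPM in libraries labelled Ahr-KO and 99.5, 34.0, 38.0, 65.6 and 43.1 CPM in WT. WT LT-HSC 1, the lowest library for Mpo and Elane, was the highest LT-HSC library for both Nkg7 and Ctsc.

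Plac8 had 1110.0, 1133, 799, 629.8 and 409 CPM in MPP labelled Ahr-KO and 388, 477, 519.7, 578 and 697 CPM in WT MPP. It had 96.0, 215, 187, 93.4 and 37.3 CPM in LT-HSC labelled Ahr-KO and 85.2, 36.8, 45.5, 67.5 and 54.7 CPM in WT LT-HSC. The populations did not overlap and the genotypes did, although 3 of 5 MPP libraries labelled Ahr-KO and 4 of 5 LT-HSC libraries labelled Ahr-KO lay above all WT libraries of their population.

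Ly6c2 had 179.6, 282, 356, 89.9 and 130.5 CPM in MPP labelled Ahr-KO and 345, 169, 395, 357 and 391 CPM in WT MPP. It had 34.3, 258, 244, 13.9 and 4.85 CPM in LT-HSC labelled Ahr-KO and 1.66, 9.38, 24.7, 53.5 and 50.7 CPM in WT LT-HSC. Ahr-KO LT-HSC 2 and 3 lay within the range of the MPP libraries, the others below it. Ly6c2 has a near-identical copy, Ly6c1, between which reads may be split, so its counts are uncertain. The ratio of Ly6c2 to Ly6c1 counts was 5.01 to 6.15 in MPP and 0.507 to 5.71 in LT-HSC.

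Set per kilobase of exon, MPP labelled Ahr-KO held the most of Mpo (1321 ± 642 CPM per kb, SD, n = 5), Elane (1147 ± 712) and Plac8 (513 ± 196). Nkg7 (349 ± 73.2), Ctsg (332 ± 157), Prtn3 (301 ± 113), Ms4a3 (94.3 ± 51.8), Ly6c2 (75.8 ± 40.1) and Ctsc (24.8 ± 3.02) followed. Neighbours in this order lay within their SDs, except Prtn3 and Ms4a3, and Ly6c2 and Ctsc. WT MPP held the most of Mpo (1452 ± 292 CPM per kb, SD, n = 5) and Elane (1295 ± 369), which did not differ beyond their spread. Ctsg (358 ± 99.5), Plac8 (334 ± 72.5), Nkg7 (310.2 ± 47.5) and Prtn3 (266 ± 57.4) followed within each other's spread, then Ly6c2 (121 ± 34.0) and Ms4a3 (106 ± 34.8), and last Ctsc (24.2 ± 1.29). In LT-HSC labelled Ahr-KO the order was Elane (203 ± 233 CPM per kb), Mpo (183 ± 199), Prtn3 (90.3 ± 36.2), Plac8 (79.0 ± 46.0), Nkg7 (66.7 ± 21.3), Ctsg (43.7 ± 50.3), Ly6c2 (40.4 ± 46.8), Ctsc (33.3 ± 6.65) and Ms4a3 (12.2 ± 14.1). In WT LT-HSC it was Mpo (88.8 ± 102 CPM per kb), Elane (80.3 ± 103), Nkg7 (61.3 ± 29.8), Prtn3 (50.3 ± 11.7), Plac8 (36.4 ± 11.9), Ctsc (31.6 ± 8.98), Ctsg (18.0 ± 19.7), Ly6c2 (10.2 ± 8.59) and Ms4a3 (6.11 ± 6.50). Neighbours in the WT order lay within their SDs, and so did those in the Ahr-KO order, apart from Ctsc and Ms4a3.

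The proportions between some of the granule transcripts were kept over the whole range of levels. The count of Mpo was 3.25 to 6.95 times that of Elane in the 10 MPP libraries and 2.76 to 5.06 times that of Elane in the 10 LT-HSC libraries. Mpo to Ctsg was 10.3 to 18.9 in MPP and 12.9 to 23.1 in 9 LT-HSC libraries, with 128 in WT LT-HSC 1, where Ctsg had 1 count. Mpo to Ms4a3 was 18.5 to 35.4 in MPP and 19.1 to 39.1 in the same 9 LT-HSC libraries, with 3.76 in WT LT-HSC 1. WT LT-HSC 1 was the exception for both Ctsg and Ms4a3.

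Other ratios were not kept. Prtn3 to Elane was 0.312 to 0.99 in MPP and 0.459 to 43.8 in LT-HSC. Mpo to Ctsc was 16.2 to 49.2 in MPP and 0.0221 to 6.20 in LT-HSC, and Mpo to Nkg7 was 8.37 to 20 in MPP and 0.0612 to 18.9 in LT-HSC. On log2 CPM centred on the group means, Pearson's r with Mpo over the 10 LT-HSC libraries was 0.997 for Elane, 0.989 for Ctsg, 0.964 for Ly6c2 and 0.953 for Ms4a3. It was 0.726 for Prtn3, 0.506 for Plac8, -0.0206 for Nkg7 and -0.225 for Ctsc. Over the 10 MPP libraries it was 0.945 for Elane, 0.872 for Ctsg, 0.848 for Nkg7, 0.841 for Ms4a3, 0.822 for Prtn3, 0.807 for Ly6c2, 0.359 for Plac8 and 0.268 for Ctsc. These are descriptions, as all points of a library share its cells and depth.

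**Figure D2:**
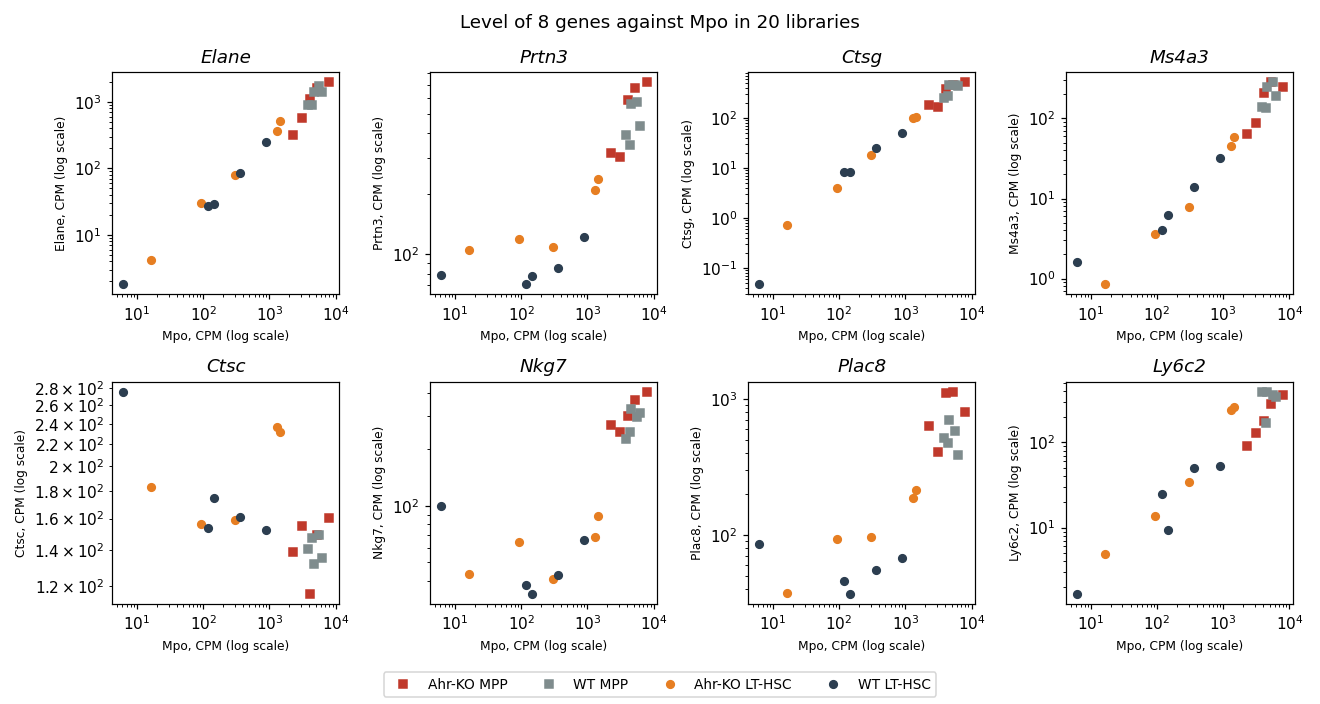
Level of each of 8 genes against that of Mpo, both in CPM on log axes, with 1 point per library. Elane keeps near one line with Mpo through all 4 groups, as does Ctsg except in WT LT-HSC 1, while Prtn3 stays at or above 70.9 CPM where Mpo is low and Ctsc shows no rise with Mpo.

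MPP were set against LT-HSC within each genotype, which asks how the granule genes differ between the populations. In WT, 8 of the 9 genes were higher in MPP in edgeR's quasi-likelihood test at an adjusted p under 0.05, where 11% of the 17416 genes tested were higher and 11.3% lower. The 8 also lay above LT-HSC in every library, as did 8.32% of genes. The log2 fold change of MPP over LT-HSC was 4.32 ± 1.10 (SE) for Ctsg, 4.12 ± 0.94 for Ms4a3, 4.03 ± 1.06 for Mpo and 4.01 ± 1.1 for Elane. It was 3.57 ± 0.96 for Ly6c2, 3.20 ± 0.39 for Plac8, 2.41 ± 0.28 for Prtn3 and 2.34 ± 0.27 for Nkg7. The adjusted p was lowest for Nkg7 (4.63e-06), Prtn3 (5.14e-06) and Plac8 (8.06e-06) and highest for Elane (0.0143). Ctsc had a log2 fold change of -0.38 ± 0.16 with an adjusted p of 0.0858. The 8 calls held in all 18 alternatives of processing, and without WT LT-HSC 6 the log2 fold changes were 4.95 for Mpo, 5.12 for Elane, 5.11 for Ctsg and 4.92 for Ms4a3.

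In the libraries labelled Ahr-KO, 6 of the 9 genes were higher in MPP, where 12.5% of genes tested were higher and 10.7% lower. These 6 lay above LT-HSC in every library, as did 11.1% of genes. They were Ms4a3 (2.94 ± 0.89, adjusted p = 0.0220), Ctsg (2.92 ± 1.03, 0.0483), Mpo (2.85 ± 1.01, 0.0490), Plac8 (2.70 ± 0.38, 3.83e-05), Nkg7 (2.38 ± 0.27, 3.38e-06) and Prtn3 (1.74 ± 0.28, 1.22e-04), as log2 fold changes with edgeR. Elane had 2.5 ± 1.04 (adjusted p = 0.0958), Ly6c2 0.91 ± 0.87 (0.509) and Ctsc -0.43 ± 0.16 (0.0539). The calls of Nkg7, Plac8 and Prtn3 held in all 19 alternatives, that of Ms4a3 in 15, of Ctsg in 8 and of Mpo in 6. Of the genes not called here, Ctsc was called lower in MPP in 9 of the 19, Elane higher in 4 and Ly6c2 higher in 2. The call of Mpo was lost without any 1 of Ahr-KO LT-HSC 1, 3, 4 or 7 or any 1 MPP library labelled Ahr-KO (adjusted p 0.0502 to 0.109). That of Ctsg was lost without Ahr-KO LT-HSC 1, 4 or 7 or any 1 of these MPP libraries (0.0513 to 0.109), and that of Ms4a3 without Ahr-KO LT-HSC 1 (0.0580) or MPP 2 (0.0527). Without Ahr-KO LT-HSC 2 the log2 fold change of Ms4a3 was 3.59.

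Without Ahr-KO LT-HSC 2 and 3, 8 of the 9 genes were higher in MPP labelled Ahr-KO than in LT-HSC, where 9.88% of the 18200 genes tested were higher and 9.03% lower. Those 2 libraries were the highest of their group for all 9 genes, so their removal by itself raises these fold changes. The log2 fold change was then 5.0 ± 1.22 for Mpo (adjusted p = 0.00807), 4.84 ± 1.26 for Elane (0.0123), 5.46 ± 1.23 for Ctsg (0.00492), 5.39 ± 0.94 for Ms4a3 (6.05e-04) and 3.52 ± 0.88 for Ly6c2 (0.00898), with edgeR, and 3.40 ± 0.39 for Plac8.

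**Figure D3:**
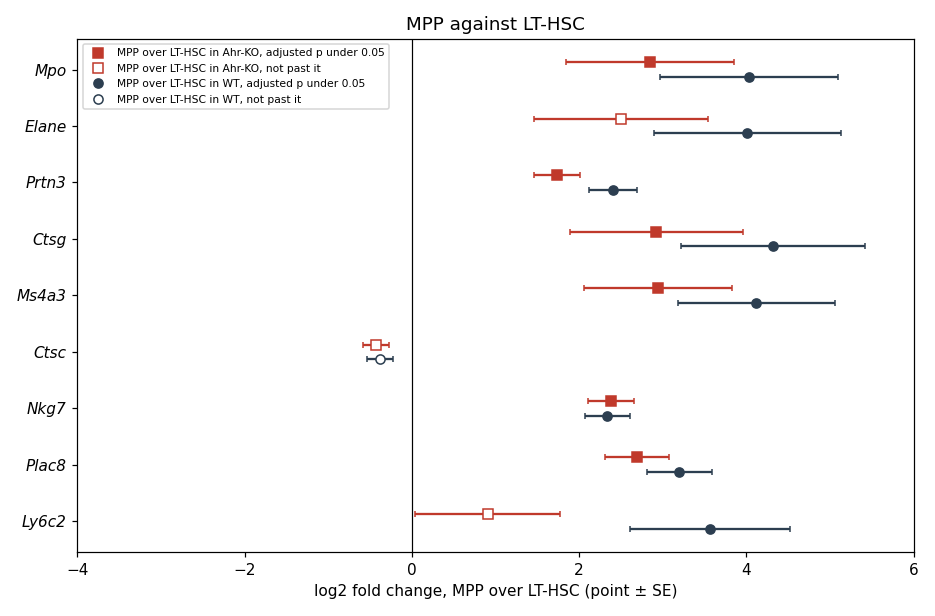
Log2 fold change of MPP over LT-HSC with its SE for the 9 genes, in the libraries labelled Ahr-KO and in WT; filled symbols have an adjusted p under 0.05 in edgeR. In WT 8 symbols are filled, in Ahr-KO 6, and Ctsc lies left of 0 in both.

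The genotypes were set against each other in each population, which bears on the study's question of what Ahr controls there. In LT-HSC none of the 9 genes was called (0 of 9), where 0.00622% of the 16065 genes tested were. All 9 log2 fold changes of Ahr-KO over WT were positive, with a median of 1.07, against 0.00 over all genes tested. The signs are not separate observations, since the levels of Mpo, Elane, Ctsg, Ms4a3 and Ly6c2 varied together in LT-HSC. At an unadjusted p under 0.05 edgeR gave 2 of 9, against 8.85% of all genes, and DESeq2 and limma voom gave 0 calls and 2 of 9 each, against 10.8% of all genes in DESeq2 and 21% in limma voom. These were Prtn3 (0.86 ± 0.26, adjusted p = 0.468 in edgeR) and Plac8 (1.14 ± 0.42, adjusted p = 0.509). Over the alternatives the adjusted p of Prtn3 was 0.105 to 1.0 and that of Plac8 0.122 to 1.0.

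Ly6c2 had the highest log2 fold change, 2.01 ± 1.11 (adjusted p = 0.633). Elane had 1.36 ± 1.23, Ctsg 1.31 ± 1.27, Mpo 1.07 ± 1.2 and Ms4a3 1.03 ± 1.04, with adjusted p of 0.796 to 0.851 in edgeR, and their standard errors are near their size. Nkg7 had 0.14 ± 0.32 and Ctsc 0.09 ± 0.19. All 9 genes overlapped between the genotypes (0 of 9 apart), while 3.64% of genes did not.

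The positive sign rested on Ahr-KO LT-HSC 2 and 3, the highest libraries of their group for all 9 genes. Leaving them out by itself lowers the fold changes, and the signs of genes that varied together are not separate observations. WT LT-HSC 6, the highest WT library for Mpo, Elane, Ctsg and Ms4a3, was kept. Without Ahr-KO libraries 2 and 3, 7 of 9 log2 fold changes were negative and the median was -0.65. Mpo was then -1.14 ± 1.29, Elane -1.04 ± 1.30, Ctsg -1.28 ± 1.37, Ms4a3 -1.48 ± 0.99 and Ly6c2 -0.65 ± 0.98 (adjusted p = 0.999 each, edgeR). Prtn3 and Plac8 stayed positive, at 0.36 ± 0.18 and 0.39 ± 0.35, with the same adjusted p.

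**Figure D4:**
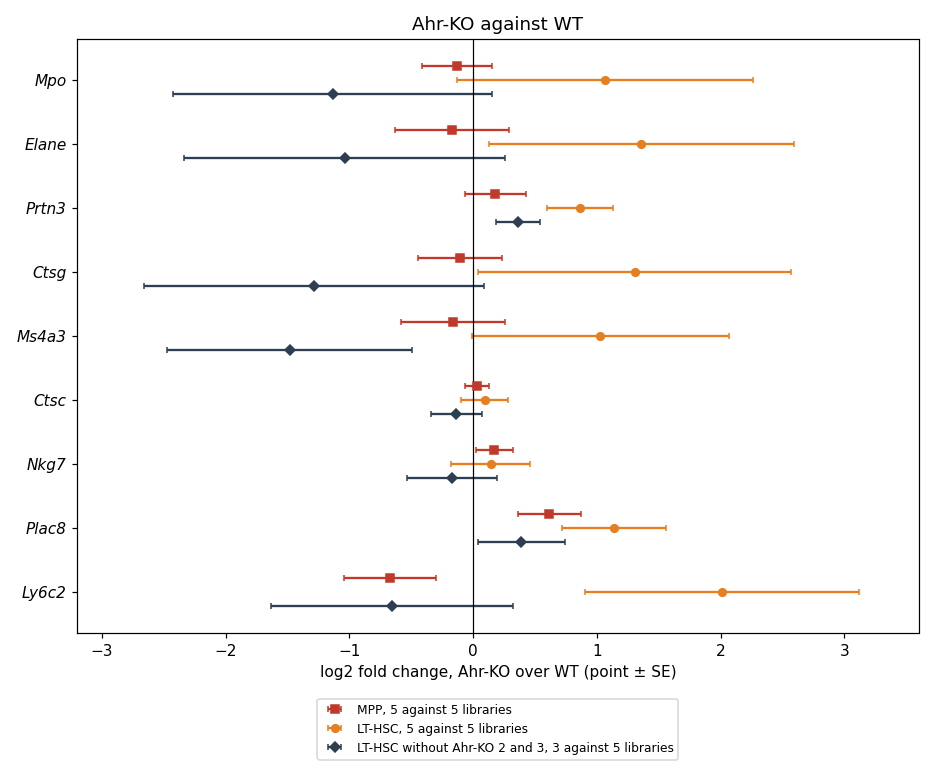
Log2 fold change of Ahr-KO over WT with its SE for the 9 genes in MPP, in LT-HSC, and in LT-HSC without Ahr-KO libraries 2 and 3. No value has an adjusted p under 0.05, and Mpo, Elane, Ctsg, Ms4a3 and Ly6c2 lie right of 0 with all LT-HSC libraries and left of 0 without those 2.

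Ahr-KO LT-HSC 2 and 3 also held more transcripts of several kinds of mature cell. The summed level of 15 late neutrophil genes, such as Ltf, Camp and Ngp, was 1189.5 CPM in library 2 and 1681 CPM in library 3, against 7.75 to 139 CPM in the remaining 8 samples of LT-HSC. All 15 had counts in 8 of the 10 LT-HSC libraries, and Mmp9 and Wfdc21 were at 0 in Ahr-KO LT-HSC 7 and Mmp8, Cd177 and Retnlg at 0 in WT LT-HSC 1. Monocyte and macrophage genes summed to 874 and 1094 CPM, against 54.1 to 229 CPM, and erythroid genes to 4598 and 5023 CPM, against 2065 to 3748 CPM. Stromal and endothelial genes summed to 193 and 4196 CPM, against 88.4 to 169 CPM, and B cell genes to 322 and 171 CPM, against 43.5 to 89.7 CPM. The 13 genes that act with the granule proteins summed to 4145 and 4399 CPM, against 2432 to 2775 CPM. Lists of granulocyte-monocyte progenitors, granule programme regulators and MPP were also higher in both. They lay above 939, 891 and 917 CPM, the highest sums of the remaining 8. The lists of other mature cells were not higher in both libraries. T and NK cell genes summed to 25.8 and 26.2 CPM, against 5.15 to 36.7 CPM. Mast cell, basophil and eosinophil genes summed to 561 and 143 CPM, against 4.40 to 329 CPM. Megakaryocyte and platelet genes summed to 1672 and 1535 CPM, against 1644 to 2069 CPM, and plasmacytoid dendritic cell genes to 166 and 167 CPM, against 153 to 173 CPM. The markers of LT-HSC summed to 2706 and 2756 CPM, against 2896 to 3351 CPM. The 9 genes themselves summed to 3144 and 2745 CPM, against 1679 CPM in WT LT-HSC 6 and 396 to 887 CPM in the other 7. The part of other cells in the levels of the 9 genes was not tested.

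**Figure D5:**
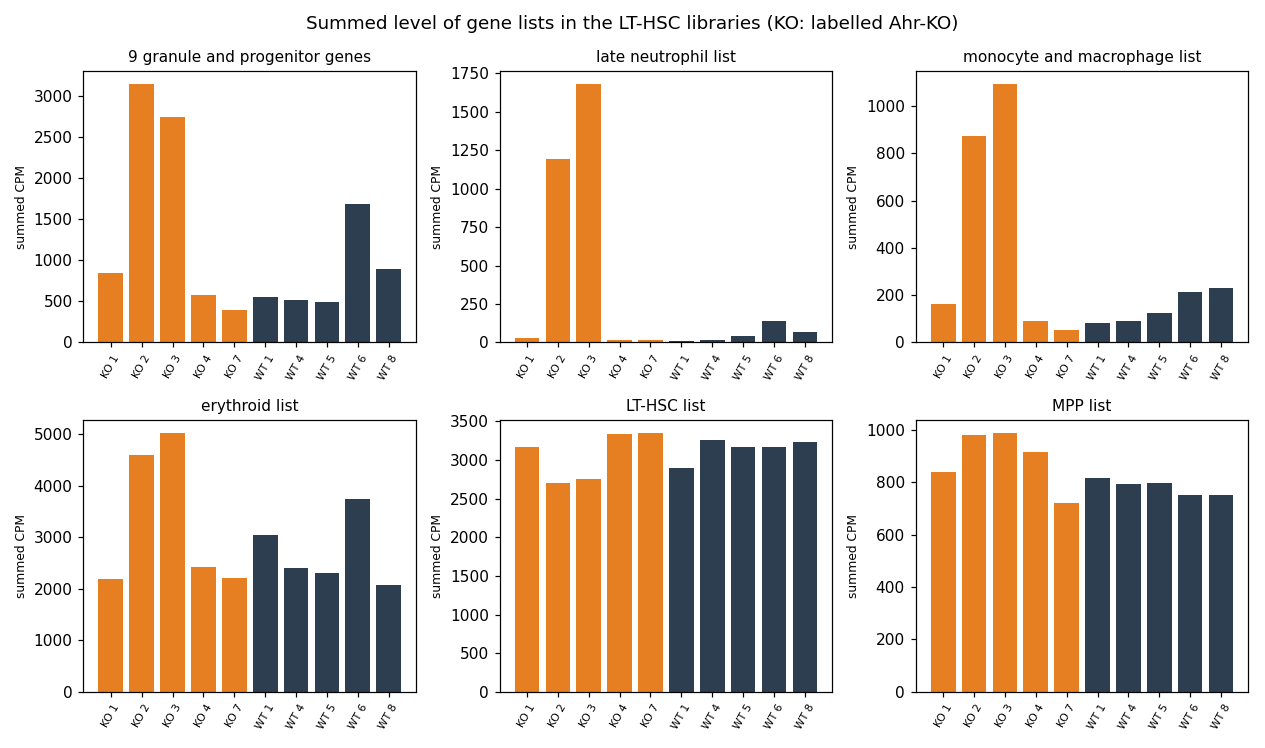
Summed level in CPM of the 9 genes and of 5 marker lists in the 10 LT-HSC libraries, those labelled Ahr-KO to the left. Libraries 2 and 3 labelled Ahr-KO are highest for the 9 genes and for the late neutrophil, monocyte and macrophage, erythroid and MPP lists, and lowest for the LT-HSC list.

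In MPP none of the 9 genes was called between the genotypes (0 of 9), where 0.0311% of the 16077 genes tested were. The median log2 fold change of Ahr-KO over WT was -0.11, with 4 of 9 positive, and all 9 genes overlapped, while 1.17% of genes did not. At an unadjusted p under 0.05 there was 1 of 9, Plac8, in edgeR, DESeq2 and limma voom, none of which called any of the 9, against 6.62% of all genes in edgeR, 7.53% in DESeq2 and 10.1% in limma voom. Plac8 had 816 ± 311 CPM in MPP labelled Ahr-KO and 532 ± 115 CPM in WT MPP (SD, n = 5 each), a log2 fold change of 0.62 ± 0.25 with an adjusted p of 0.675 in edgeR. Ly6c2 had -0.67 ± 0.37 (adjusted p = 0.780).

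Mpo had -0.13 ± 0.28, Elane -0.17 ± 0.46, Ms4a3 -0.16 ± 0.42, Ctsg -0.11 ± 0.34, Prtn3 0.18 ± 0.25, Nkg7 0.17 ± 0.15 and Ctsc 0.03 ± 0.10, with adjusted p of 0.863 to 0.963 in edgeR. Ahr-KO MPP 4 and 5 were the lowest of the 10 libraries for Mpo, Elane, Prtn3, Ctsg, Ms4a3 and Ly6c2, and without library 4 the log2 fold changes of Mpo, Elane, Ctsg and Ms4a3 turned positive. Without library 5 those of Elane, Ctsg and Ms4a3 were also positive. The LT-HSC markers summed to 1043 and 1387 CPM in Ahr-KO MPP 4 and 5, against 817 to 826 CPM in Ahr-KO MPP 1 to 3 and 854 to 1107 CPM in WT MPP. The late neutrophil genes summed to 182 and 579.9 CPM in Ahr-KO MPP 4 and 5, against 521 to 913 CPM in Ahr-KO MPP 1 to 3. Their part in the levels was not tested.

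The genotype effect in MPP was then set against that in LT-HSC. None of the 9 differences was called (0 of 9, and 0% of 17416 genes tested). The largest was that of Ly6c2, -2.66 ± 1.24 as MPP minus LT-HSC (adjusted p = 0.770, edgeR), the 1 of 9 with an unadjusted p under 0.05, against 6.46% of all genes. DESeq2 and limma voom called none of the 9 either, with 1 and 0 of 9 at an unadjusted p under 0.05, against 7.44% and 10.6% of all genes. Without Ahr-KO LT-HSC 2 and 3 the difference of Ly6c2 was -0.028 ± 0.99. That of Mpo was 0.99 ± 1.26 without them, against -1.18 ± 1.34 over all libraries.

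Of 13 genes that act with the granule proteins 12 could be tested, and 8 were higher and 2 lower in WT MPP than in WT LT-HSC, with 6 higher and 2 lower in the libraries labelled Ahr-KO. Of all genes tested 11% were higher and 11.3% lower in WT, and 12.5% and 10.7% in Ahr-KO. These shares also apply to the lists that follow. Serpinb1a, which encodes an inhibitor of neutrophil serine proteases, had 372 ± 49.3 CPM in MPP and 117 ± 25.8 CPM in LT-HSC of Ahr-KO, and 397 ± 35.4 CPM in WT MPP and 122 ± 11.6 CPM in WT LT-HSC (SD, n = 5 each). Its log2 fold change was 1.67 ± 0.13 in Ahr-KO (adjusted p = 5.48e-08) and 1.71 ± 0.13 in WT (3.23e-08) in edgeR. Prss57, a further granule serine protease, had 2.44 ± 0.36 in Ahr-KO (6.04e-05) and 2.73 ± 0.37 in WT (2.20e-05).

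Of 13 regulators of this programme all were tested, and 9 were higher and 0 lower in WT MPP, and 7 higher and 0 lower in MPP labelled Ahr-KO. Cebpa, a transcription factor needed for granulocyte-monocyte progenitors, had 27.9 ± 3.87 CPM in MPP and 6.11 ± 2.62 CPM in LT-HSC labelled Ahr-KO, and 24.2 ± 5.55 CPM in WT MPP and 1.97 ± 1.2 CPM in WT LT-HSC. Its log2 fold change was 2.19 ± 0.36 in Ahr-KO (adjusted p = 1.56e-04) and 3.62 ± 0.38 in WT (1.53e-06, edgeR). Csf3r, the receptor of granulocyte colony-stimulating factor, had 1.30 ± 0.12 in Ahr-KO and 1.88 ± 0.12 in WT, and Gfi1, a repressor needed for neutrophils, 2.34 ± 0.28 and 2.07 ± 0.28.

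Of 15 granulocyte-monocyte progenitor genes 13 were higher in WT MPP and 8 in MPP labelled Ahr-KO, and 0 were lower. Hk3, which encodes a hexokinase, had a log2 fold change of 1.89 ± 0.19 in Ahr-KO (adjusted p = 9.99e-07) and 2.76 ± 0.20 in WT (1.47e-08, edgeR). Of the 15 late neutrophil genes 8 were higher in WT MPP, with Ltf at 52.1 ± 16.9 CPM in WT MPP and 0.549 ± 0.358 CPM in WT LT-HSC. In the libraries labelled Ahr-KO 0 of 15 were called in edgeR and DESeq2 and 3 in limma voom, against 23.2%, 26.2% and 32.7% of all genes. At an unadjusted p under 0.05 there were 1, 1 and 5 in these tools, against 34.2%, 35.4% and 41.9%. Ahr-KO LT-HSC 2 and 3 had the highest LT-HSC sums of the late neutrophil, progenitor and regulator lists. Leaving them out by itself favours higher levels in MPP. Without them edgeR called 12 of the 15 late neutrophil genes higher in MPP, 14 of the 15 progenitor genes and 9 of the 13 regulators. Of all genes 9.88% were then higher.

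Between the genotypes none of these 4 lists had a called gene in either population in edgeR. In LT-HSC the medians of Ahr-KO over WT were 0.15 for the genes acting with granule proteins, 0.50 for the regulators, 1.09 for the progenitor genes and 3.52 for the late neutrophil genes. At an unadjusted p under 0.05 edgeR gave 2, 3, 4 and 9 genes, against 8.85% of all genes. Of the 12, 12, 15 and 13 genes tested in these lists DESeq2 called 0, 1, 2 and 2, against 0.915% of all genes, and limma voom 1, 1, 1 and 0, against 1.9%. In MPP edgeR gave 0, 1, 0 and 2 genes at an unadjusted p under 0.05, against 6.62% of all genes. DESeq2 and limma voom called 0, against 0.311% and 0.0498% of all genes. Without Ahr-KO LT-HSC 2 and 3 the LT-HSC medians were -0.08, -0.05, -0.19 and -0.90. Those 2 libraries had the highest LT-HSC sums of all 4 lists, so leaving them out by itself favours lower medians. Of the genes in these lists Csf3r had the smallest p in LT-HSC (log2 fold change 0.94 ± 0.13, adjusted p = 0.0950 in edgeR). It had 125 ± 12 CPM in LT-HSC labelled Ahr-KO and 66.0 ± 11.3 CPM in WT LT-HSC, without overlap. In MPP the same gene had 308 ± 28.0 CPM in the libraries labelled Ahr-KO and 243 ± 30.8 CPM in WT, again without overlap (0.34 ± 0.10, adjusted p = 0.554).

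The genes whose levels followed Mpo most closely were named by Pearson's r on log2 CPM centred on the group means, as a description. Over the 10 LT-HSC libraries and 9952 genes they were Cybb (0.988), Slc4a1 (0.985), Sptb (0.981), Atp8b4 (0.977), Chil3 (0.977), Ccl6 (0.975), Csf1r (0.975) and Ccr2 (0.967). All 8 fell to between 0 and 0.143 CPM in their lowest LT-HSC library, and such values weigh heavily in r on log2 levels. The r without the lowest library was not computed. Cybb encodes the core subunit of the phagocyte oxidase, and Slc4a1 and Sptb encode proteins of the red cell membrane. Over the 10 MPP libraries and 9856 genes they were F13a1 (0.984), Ube2c (0.981), Cpox (0.962), Hp (0.957), Fam49b (0.954), Lta4h (0.953), Atp8b4 (0.952) and Gpc1 (0.948). Only Atp8b4 was among the 8 in both populations.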

How the data were processed

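RNA was measured in 20 libraries of 4 groups. The authors deposited raw counts by gene symbol, 1 table a population, from an unstranded poly(A) kit per the labels' protocols, which also speak of DC samples that are not of this series. Tools in the submitters' processing notes are DESeq2 1.12.4, STAR 2.5.2b, featureCounts of Subread 1.5.0p3 and Trimmomatic 0.36, and the build is GRCm38.p5. The annotation is not stated. Both tables were joined. Counts without molecular identifiers understate the error of a value, and at these totals the spread between libraries sets the precision: the biological coefficient of variation was 32.5% in LT-HSC and 29.2% in MPP.

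Genes were tested with edgeR 4.0.16 (R 4.3.3): TMM scaling, filterByExpr and the two-sided quasi-likelihood test with robust fitting. P-values were adjusted by Benjamini-Hochberg over every gene tested, with a threshold of 0.05. Ahr-KO was compared with WT on the 10 libraries of a population, and MPP with LT-HSC, and the effects between populations, in 1 fit of all 20. A standard error is the size of the log2 fold change over the root of its F. The fits were tested on simulated data with the same biological coefficient of variation for every gene. The spread of Mpo in LT-HSC was far wider, so that simulation does not show how the tests perform on such genes. Coordinates and exon lengths came from GENCODE M21, which held 47114 of the 49568 symbols once, and promoters from RefSeq, which held all 9 genes.

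The 9 genes and 15 context lists were chosen with earlier results of these data known. Named are the 9 genes, Ahr, of each list up to 3 called genes with the smallest p in a comparison (or, with none called, the 1 of smallest p), and the 8 genes closest to Mpo by correlation among those with a mean of at least 5 CPM. Further genes named as examples of a list (Procr, Hlf, Ly6a, Camp, Ngp), genes at 0, and Plppr3 and Ly6c1 were named after their values were seen. One gene that the rule names is not reported here. Alternatives were DESeq2 size factors, no filter, a filter of 5 CPM in 5 libraries, DESeq2 1.42.0, limma 3.58.1 voom with quality weights, the replicate number as a block, each library left out, Ahr-KO LT-HSC 2 and 3 left out, also with WT LT-HSC 1, other choices of libraries in a fit, and a fold change of at least 1.5. The block kept only libraries whose number occurs more than once in a fit. In the fit of LT-HSC alone these were the libraries numbered 1 and 4.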

Additional observations from a re-analysis of the deposited data

Results flagged for a closer look

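In 36 tests of single genes within groups of 5 libraries, 3 libraries stood far from the others of their group by Dixon's test, of which chance gives about 1 in 20. Prtn3 had 122 CPM in WT LT-HSC 6, the highest of its group. Ctsc had 275 CPM in WT LT-HSC 1, the highest of its group, in the library with the lowest mitochondrial share. Ly6c2 had 169 CPM in WT MPP 2, the lowest of its group.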

How the results depend on the processing

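None of the 9 genes was called between the genotypes, or in the comparison of effects, under any alternative. Calls among all genes in LT-HSC, 1 in the reported fit, were 3 with DESeq2 size factors, 4 with no filter, 3 with the filter of 5 CPM, 147 with DESeq2, 305 with voom, 0 with the replicate block, 14 with all 20 libraries in 1 fit, 32 without Ahr-KO LT-HSC 2 and 3 and WT LT-HSC 1, and 0 to 203 with 1 library left out, 203 being without WT LT-HSC 1. In MPP, 5 calls became 3 with DESeq2 size factors, 50 with DESeq2, 8 with voom, 0 with the block and 0 to 4 with 1 library left out. For MPP against LT-HSC, 4041 calls in Ahr-KO became 2435 with the block, 3876 in WT became 6493 with voom and 1857 with the block, and of the 9 genes the 6 called in Ahr-KO became 3 with no filter and 3 to 6 with 1 library left out (3 without Ahr-KO MPP 2). The counts with 1 library left out include Ctsc where it was called lower. In Ahr-KO, Ctsc was called lower with DESeq2 (adjusted p = 0.0309) and voom (0.0111). Elane was called higher with DESeq2 (0.0410) and voom (0.0162). In WT, Ctsc was called lower in 1 of 18 alternatives, DESeq2 (0.0492). In the comparison of effects, 0 calls became 51 with DESeq2 and 18 with voom.

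Signs of the 9 genes turned as follows, none of these values being called; the cause was not tested. In LT-HSC the log2 fold changes of Mpo, Elane, Ctsg, Ms4a3, Ctsc, Nkg7 and Ly6c2 were -1.14, -1.04, -1.28, -1.48, -0.13, -0.17 and -0.65 without Ahr-KO LT-HSC 2 and 3. Without WT LT-HSC 1 as well they were -1.45 for Mpo, -1.35 for Elane, -1.60 for Ctsg, -1.76 for Ms4a3 and -0.96 for Ly6c2. With the block Ctsc was -0.48 and Nkg7 -0.18, and with 1 library left out Nkg7 ranged from -0.035 to 0.45. In MPP, Ctsc was -0.0084 with voom. With 1 library left out, Mpo ranged from -0.43 to 0.040, Elane from -0.48 to 0.069, Ctsg from -0.31 to 0.075, Ms4a3 from -0.41 to 0.054 and Ctsc from -0.011 to 0.10. The differences of effects without Ahr-KO LT-HSC 2 and 3 were 0.99 for Mpo, 0.85 for Elane, 1.16 for Ctsg, 1.30 for Ms4a3, 0.16 for Ctsc and 0.22 for Plac8, and without WT LT-HSC 1 as well 1.32, 1.18, 1.49 and 1.58 for the first 4, 0.049 for Plac8 and 0.29 for Ly6c2. For Nkg7 the difference was -0.20 with voom, -0.016 with the block and -0.27 to 0.20 with 1 library left out, and for Ctsc 0.20 with the block and -0.24 to 0.023 with 1 library left out. Of 909 single values of the 9 genes under alternatives, 814 kept their direction and their side of the threshold.

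The correlation of same-numbered libraries was -0.33 to 0.23. It was not set against that of differently numbered libraries, so it does not settle whether replicate numbers pair them. In the fit of all libraries the replicate block also left out WT LT-HSC 6 and 8 and Ahr-KO LT-HSC 7, whose numbers occur once. The block ended the call of Ctsg in Ahr-KO and changed no other call of the 9 genes. With it the log2 fold changes of MPP over LT-HSC in WT were 5.63 for Mpo, 5.89 for Elane, 5.94 for Ctsg, 5.44 for Ms4a3 and 4.78 for Ly6c2. What blocking and the loss of libraries each added to these values was not tested. Ctsg in WT LT-HSC 1 rests on 1 count, in the library with the highest total (21622653 counts).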
